A study of Mus musculus with 11 samples.

Results

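AP-1 and BATF factors are transcription factors that bind DNA in pairs through a basic leucine zipper. The 10 genes described here were chosen by symbol: Fos, Fosb, Fosl1 and Fosl2 of the Fos family, Jun, Junb and Jund of the Jun family, the small Maf gene Maff, and Batf and Batf2. All 10 were found among the 36529 genes counted in each sample. The cells were BV2, a single transformed line of mouse microglia from strain C57BL/6, and the 11 RNA-seq samples fell into 4 groups. In the first experiment 3 samples received 25 µg/mL of a recombinant, His-tagged ApoE4 fragment of residues 1 to 151 for 5 h (ApoE4), and 3 untreated samples were its controls (ControlA). In the second experiment 2 samples received the matching ApoE3 fragment at the same dose and time (ApoE3), and 3 untreated samples were its controls (ControlB). The fragments were made by a contract company and differ by 1 amino acid, arginine in ApoE4 and cysteine in ApoE3. The labels name a PBS vehicle in one field and untreated cells in another, while the study's methods name conditioned media, and which the controls received is not known.

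Fos and Jun genes are among the immediate early genes, which many cells switch on within minutes of a stimulus and off again soon after. A Fos protein binds DNA only with a partner, most often a Jun protein, while Jun proteins can also pair with each other, and the pair binds the AP-1 site. MAP kinases control both the transcription of these genes and the activity of their proteins. Small Maf proteins such as MAFF have no activation domain of their own and pair with other factors, and BATF proteins pair with Jun proteins and can bind next to IRF factors at genes of immune cells. In microglia and macrophages AP-1 factors act with NF-kB at inflammatory genes.

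The promoters of the genes that differed most between the fragments are shown first, together with that of Fos, since these are the stretches in front of the genes that the results turn on. Each is the 100 bases before a transcription start in RefSeq on GRCm38.p6, and none of the 5 stretches overlaps an annotated exon. The Jun stretch is chr4:95052223-95052322 on the minus strand. Maff has 3 starts in RefSeq, and the stretches before start 1, start 2 and start 3 are chr15:79346521-79346620, chr15:79347420-79347519 and chr15:79348302-79348401 on the plus strand. The Fos stretch is chr12:85473790-85473889 on the plus strand. Capitals mark the 8-base site TGANNTCA in Jun and Maff and the TATA box TATAAA in Fos, and Maff start 1 held none of the motifs searched.
Jun: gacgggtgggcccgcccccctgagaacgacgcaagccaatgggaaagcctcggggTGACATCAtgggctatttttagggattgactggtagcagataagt
Maff start 1: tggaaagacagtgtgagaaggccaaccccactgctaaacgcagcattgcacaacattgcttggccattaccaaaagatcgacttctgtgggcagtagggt
Maff start 2: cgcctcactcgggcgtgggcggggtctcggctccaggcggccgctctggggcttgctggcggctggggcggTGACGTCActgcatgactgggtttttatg
Maff start 3: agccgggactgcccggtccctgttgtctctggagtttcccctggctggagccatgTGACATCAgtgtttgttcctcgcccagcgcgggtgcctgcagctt
Fos: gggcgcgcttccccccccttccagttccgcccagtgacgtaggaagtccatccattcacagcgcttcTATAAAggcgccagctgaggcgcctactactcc

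Jun and Maff start 3 carried the same 8 letters, TGACATCA, at 45 to 38 bases before the start. Maff start 2 carried TGACGTCA, the cyclic AMP response element, at 29 to 22 bases before the start. Promoters were found in RefSeq for 8 of the 10 genes, all but Fosl1 and Batf2. In the 250 bases before the start, read on both strands, TGANNTCA was found in 3 of these 8 genes (Jun, Jund and Maff) and in 11.9% of 32851 promoters. Counted by promoter, as this share is, it was found in 4 of the 10 promoters of these genes, with Maff counted once for each start. The RefSeq promoter of Jund ends at 8:70697738, upstream of the GENCODE position of Jund given below, which begins at 8:70698949. The element TGACGTCA, which is one form of TGANNTCA, was found in 1 of the 8 and in 1.55% of all promoters. The 7-base AP-1 site TGANTCA was found in 0 of the 8 and in 6.75% of all promoters. An NF-kB site was found in 3 of the 8 (Fos, Fosb and Fosl2) and in 5% of all promoters. A match is a description of the letters and not evidence of binding.

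The samples of the first experiment held 39732710 to 44162511 counts and those of the second 55809688 to 69768666, so that 3 counts correspond to between 0.0425 and 0.0756 CPM, which are counts scaled to a common library size. Levels below are in CPM after TMM normalization over the 11 samples. Within groups, the correlation of log2 CPM across genes was 0.9954 to 0.9986. The summed level of 15 microglia and macrophage markers was 2862 to 4351 CPM, with 11 to 13 of the 15 above 3 counts in every sample of a group. P2ry12, a marker of resting brain microglia, had 0 counts in every sample, and Sall1 had 0 in the first experiment. In each sample 3.24% to 3.56% of the tallied reads were ambiguous between genes and not counted. Whether genes with 0 counts were silent was therefore not tested. Markers of neurons summed to at most 1.42 CPM, of astrocytes to 7.03 CPM, of oligodendrocytes to 25.5 CPM, of lymphocytes to 1.81 CPM, and of fibroblasts and endothelium to 2.21 CPM. The 5 astrocyte markers moved with treatment, from 1.20 to 1.39 CPM in ControlA to 6.02 to 7.03 CPM in ApoE4 and from 1.07 to 1.30 CPM in ControlB to 4.37 to 4.53 CPM in ApoE3. Their rise was that of the glutamate transporter gene Slc1a2 (log2 change 2.69 and 2.05), while Gja1 had 0 counts in all ControlA, ApoE4 and ApoE3 samples, and their part in the results was not tested. The labels do not say whether the samples of a group were separate cultures, and the study calls its measurements independent without saying what was repeated. The p-values measure only the spread between these samples. In bulk RNA, fewer cells expressing a gene and less RNA per cell cannot be told apart.

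With the ApoE4 fragment, 5 of the 10 genes rose (Fosl1, Junb, Jund, Batf and Batf2), 4 fell (Fos, Fosb, Fosl2 and Jun), and Maff did not pass the threshold, an adjusted p under 0.05 in edgeR's quasi-likelihood test. Among all 14240 genes tested, 28.6% rose and 28.6% fell. With the ApoE3 fragment, 7 rose (Fosl1, Fosl2, Jun, Junb, Maff, Batf and Batf2), 2 fell (Fos and Fosb), and Jund did not pass. Among all 14817 genes tested there, 33.1% rose and 34.6% fell. The median log2 change of the 10 genes was 0.47 with ApoE4 and 0.98 with ApoE3, while that of all genes tested was 0.00 in both comparisons. Fosl2 and Jun fell with ApoE4 and rose with ApoE3. Of 6493 genes that changed with both fragments, 502 (7.73%) changed in opposite directions, and of the 8 AP-1 and BATF genes that changed with both, these 2 did.

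**Figure D1:**
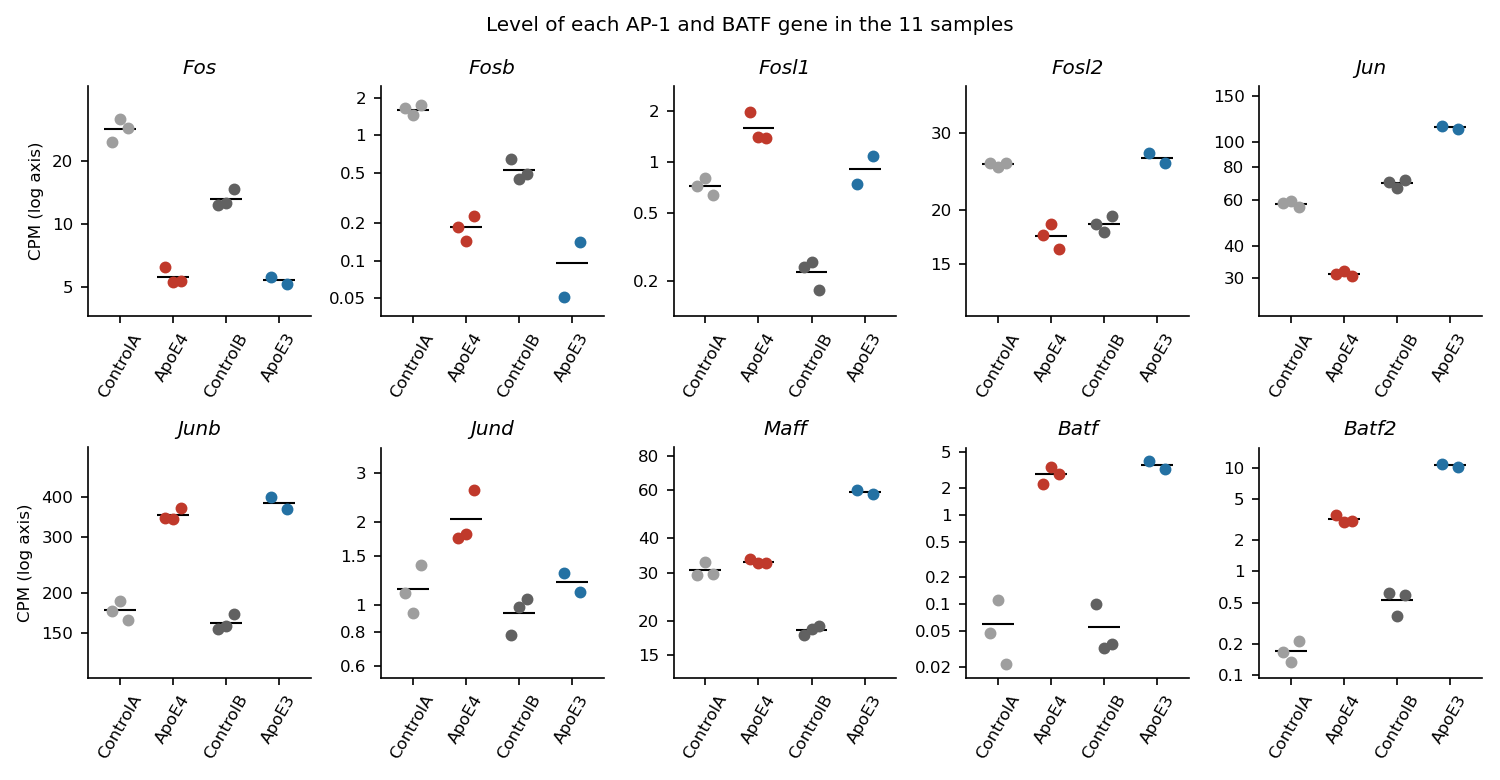
Level of each gene in CPM, on a log axis whose range differs between panels, in the 3 ControlA, 3 ApoE4, 3 ControlB and 2 ApoE3 samples; points are samples and lines are group means. Fos fell from 28.4 CPM in ControlA and from 13.2 CPM in ControlB to about the same level, while Jun moved down with ApoE4 and up with ApoE3.

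Fos, the founding member of the family and the textbook immediate early gene, lies at 12:85473890-85477273 on the plus strand of GRCm38, the build of all positions here. Its level was 24.7, 31.8 and 28.7 CPM in the ControlA samples and 6.23, 5.29 and 5.37 CPM in the ApoE4 samples. In the second experiment it was 12.3, 12.6 and 14.8 CPM in ControlB and 5.62 and 5.21 CPM in ApoE3. Treated and control samples did not overlap in either experiment, and the treated samples of both ended in the same range although the controls had started apart. The log2 change was -2.33 (SE 0.11, adjusted p = 1.07e-07), a 5.02-fold fall, with ApoE4. It was -1.29 (SE 0.089, adjusted p = 6.08e-08), a 2.45-fold fall, with ApoE3.

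Fosb (7:19302696-19310051, minus strand), whose product is best known from lasting responses in neurons, followed the same direction at a far lower level. Its counts were 70, 65 and 81 in ControlA and 8, 6 and 9 in ApoE4. They were 46, 28 and 28 in ControlB and 3 and 8 in ApoE3. No treated sample reached a control sample of its experiment. The fall was 8.53-fold with ApoE4 (log2 change -3.09, SE 0.24, adjusted p = 3.79e-06) and 5.51-fold with ApoE3 (-2.46, SE 0.43, adjusted p = 2.41e-04). One ApoE3 sample was at the floor of 3 counts, and the size of the fall depended on which ApoE3 sample was kept, with a log2 change of -1.91 without ApoE3 replicate 1 and -3.34 without ApoE3 replicate 2.

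Fosl1 (19:5447547-5455946, plus strand) encodes FRA-1, a Fos protein that lacks the activation domain of FOS and is itself a known AP-1 target. It had 31, 36 and 30 counts in ControlA and 84, 58 and 55 in ApoE4. In ControlB it had 17, 16 and 10 counts, and in ApoE3 it had 43 and 61. Both treated groups lay above their controls. The rise was 2.19-fold with ApoE4 (log2 change 1.13, SE 0.22, adjusted p = 0.00148) and 3.96-fold with ApoE3 (1.98, SE 0.29, adjusted p = 5.33e-05). Of the exon bases of Fosl1, 57.2% are shared with Ccdc85b, a neighbour that fell in both experiments (log2 change -1.28 and -1.20), and whether the counting used strand is not stated.

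Fosl2 (5:32135801-32157842, plus strand) encodes FRA-2, the other Fos protein without that domain, and it moved in opposite directions. Its level was 25.6, 25.1 and 25.6 CPM in ControlA and 17.5, 18.6 and 16.3 CPM in ApoE4. In ControlB it was 18.5, 17.7 and 19.3 CPM and in ApoE3 26.9 and 25.5 CPM. In each experiment treated and control samples lay apart, while ApoE4 overlapped ControlB and ApoE3 overlapped ControlA. Fosl2 fell 1.45-fold with ApoE4 (log2 change -0.54, SE 0.069, adjusted p = 1.06e-04) and rose 1.41-fold with ApoE3 (0.50, SE 0.047, adjusted p = 1.28e-06). These changes were small, and 35.8% of genes tested with ApoE4 and 37.0% with ApoE3 had a larger one.

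Levels of the family members were compared per kilobase of transcript. The 4 Fos genes summed to 18.2 ± 1.64 CPM per kb in ControlA (SD, n = 3) and 6.23 ± 0.455 in ApoE4 (n = 3), and to 9.37 ± 0.711 in ControlB (n = 3) and 7.10 ± 0.143 in ApoE3 (n = 2). Fos made up 74.0% of this sum in ControlA and 42.8% in ApoE4, and 66.9% in ControlB and 36.2% in ApoE3. The share of Fosl2 rose in turn from 21.5% to 42.9% and from 30.3% to 56.6%. The ratio of Fosl2 to Fos was 0.255 to 0.334 in ControlA, 0.906 to 1.13 in ApoE4, 0.422 to 0.485 in ControlB and 1.55 to 1.58 in ApoE3. The share of Fosl1, a gene of low counts, rose from 2.15% to 13.5% with ApoE4 and from 1.31% to 6.90% with ApoE3. The mix therefore moved from mostly Fos toward Fosl2 and Fosl1 with both fragments. With ApoE4 this happened while Fosl2 itself fell, and with ApoE3 while Fosl2 rose.

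**Figure D2:**
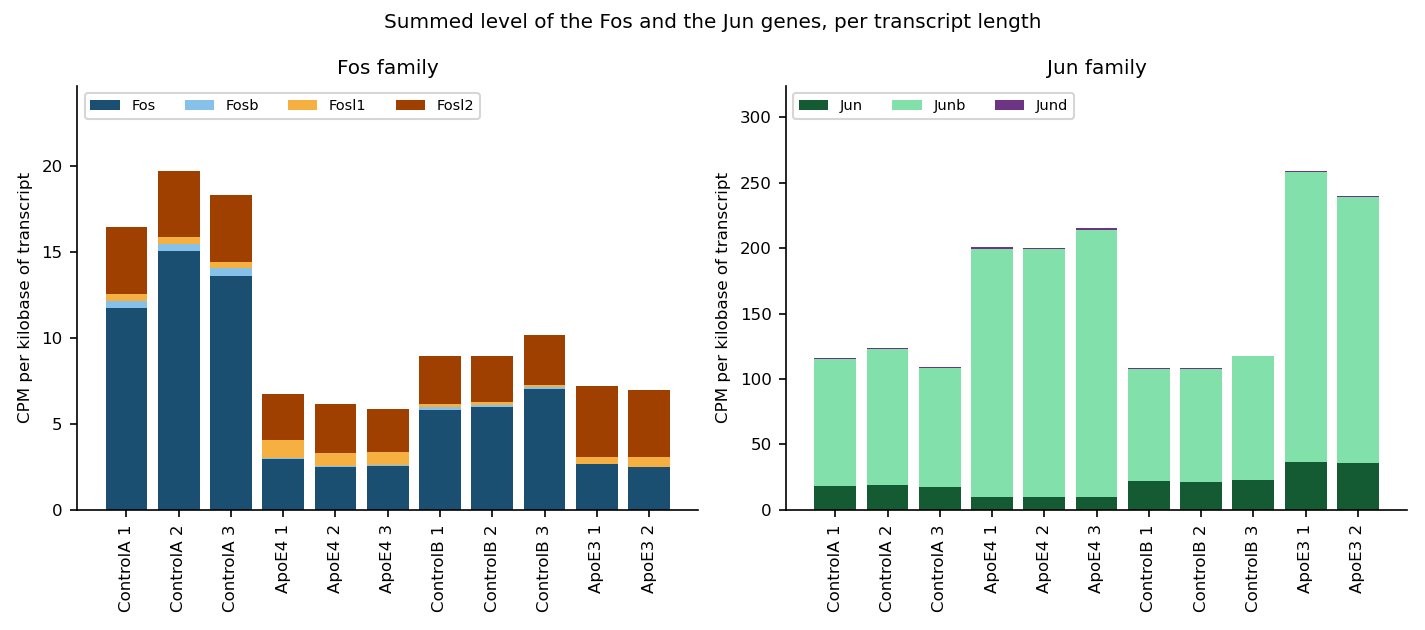
Summed level of the Fos genes (left) and the Jun genes (right) in each of the 11 samples, in CPM per kilobase of transcript, with each gene as a segment of the bar. The Fos sum fell with both fragments and the Jun sum rose with both, with Junb as the largest segment of every Jun bar.

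Jun, the partner in the classic Fos-Jun pair and a target of JNK, is a single-exon gene at 4:95049034-95052222 on the minus strand. Its level was 58.2, 59.4 and 56.3 CPM in ControlA and 31.1, 31.8 and 30.6 CPM in ApoE4. In ControlB it was 70.2, 66.5 and 71.7 CPM, and in ApoE3 115 and 113 CPM. The 4 groups did not overlap at all, with ApoE4 the lowest and ApoE3 the highest. Jun fell 1.85-fold with ApoE4 (log2 change -0.89, SE 0.055, adjusted p = 6.26e-07) and rose 1.63-fold with ApoE3 (0.71, SE 0.033, adjusted p = 1.62e-09).

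Junb (8:84974484-84978718, minus strand), which encodes a Jun protein that can oppose c-Jun at many promoters, was the most abundant of the 10 genes per kilobase in every group. It had 176, 189 and 164 CPM in ControlA and 344, 342 and 369.4 CPM in ApoE4. In ControlB it had 155, 157 and 171 CPM and in ApoE3 402 and 368.8 CPM. Both treated groups stood far above their controls and overlapped each other. The rise was 2.00-fold with ApoE4 (log2 change 1.00, SE 0.070, adjusted p = 1.64e-06) and 2.38-fold with ApoE3 (1.25, SE 0.043, adjusted p = 8.45e-11).

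Jund (8:70698949-70700616, plus strand), the Jun gene that most resting cells keep on, was counted at a low level here, with 47, 42 and 65 counts in ControlA and 75, 75 and 103 in ApoE4. It had 55, 61 and 59 counts in ControlB and 76 and 63 in ApoE3. Scaled for depth, the treated samples lay above their controls in both experiments, by a narrow margin in the second (1.12 CPM in the lower ApoE3 sample and 1.05 CPM in the highest ControlB sample). The rise was 1.79-fold with ApoE4 (log2 change 0.84, SE 0.22, adjusted p = 0.00984). With ApoE3 the log2 change was 0.37 (SE 0.20, adjusted p = 0.120). Of its exon bases 52.6% are shared with Gm11175 on the opposite strand. That gene is no row of the count tables, and whether any reads of Jund were left out of its count was not tested.

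The 3 Jun genes summed to 116 ± 7.15 CPM per kb in ControlA (SD, n = 3) and 205 ± 8.56 in ApoE4 (n = 3), and to 111 ± 5.61 in ControlB (n = 3) and 250 ± 13.7 in ApoE3 (n = 2). Junb made up 83.8% of the sum in ControlA and 94.6% in ApoE4, and 79.9% in ControlB and 85.4% in ApoE3. Jun went from 15.6% to 4.76% with ApoE4 and from 19.6% to 14.3% with ApoE3. The ratio of Junb to Jun was 5.15 to 5.61 in ControlA and 19.0 to 21.3 in ApoE4, but 3.89 to 4.21 in ControlB and 5.76 to 6.16 in ApoE3. By these counts, the Jun sum with ApoE4 was made almost wholly of Junb, and with ApoE3 both Jun and Junb had risen. Jund was counted at only 0.279% to 0.764% of the sum. Whether any reads of Jund were left out of its count was not tested, and neither was its true share.

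Maff (15:79346621-79359076, plus strand) codes for a small Maf protein and is known as an early response gene. It had 29.4, 32.8 and 29.8 CPM in ControlA and 33.5, 32.4 and 32.6 CPM in ApoE4, with overlap between the groups. In ControlB it had 17.8, 18.6 and 19.2 CPM and in ApoE3 59.9 and 58.2 CPM, without overlap. With ApoE4 the log2 change was 0.11 (SE 0.062, adjusted p = 0.177), with a 95% interval of -0.02 to 0.23. With ApoE3 Maff rose 3.18-fold (log2 change 1.67, SE 0.040, adjusted p = 2.73e-12). The other small Maf genes, Mafg and Mafk, which were picked for their kinship after their values were known, rose with both fragments. The log2 change was 0.65 with ApoE4 and 0.56 with ApoE3 for Mafg, and 0.31 and 1.06 for Mafk.

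Batf and Batf2 showed the largest changes of the 10 genes with each fragment. Batf (12:85686669-85709087, plus strand), which encodes a factor needed for several T helper and dendritic cell states, had 2, 5 and 1 counts in ControlA and 96, 141 and 115 in ApoE4. It had 7, 2 and 2 counts in ControlB and 231 and 184 in ApoE3. The controls were near the floor of 3 counts, so that the size of the change is set by very few reads. The ratio of pooled counts per depth was 47.5 with ApoE4, with an exact 95% interval of 23.9 to 111, and 62.1 with ApoE3, with an interval of 34.4 to 125, and these intervals cover counting error only. The fitted log2 changes were 5.51 (SE 0.38, adjusted p = 1.31e-06) and 5.91 (SE 0.29, adjusted p = 2.45e-09). Leaving out the control sample with the most reads of Batf gave 6.28 with ApoE4 (without ControlA replicate 2) and 6.64 with ApoE3 (without ControlB replicate 1).

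Batf2 (19:6140983-6172476, plus strand), known from macrophages exposed to interferon or bacterial products, had 7, 6 and 10 counts in ControlA and 151, 125 and 122 in ApoE4. It had 44, 23 and 33 counts in ControlB and 644 and 573 in ApoE3. The rise was 18.5-fold with ApoE4 (log2 change 4.21, SE 0.22, adjusted p = 2.12e-07) and 19.9-fold with ApoE3 (4.31, SE 0.15, adjusted p = 9.16e-11). The ApoE3 samples ended at 11.1 and 10.1 CPM and the ApoE4 samples at 3.52, 3.01 and 3.07 CPM, from controls that also differed. Per kilobase, Batf and Batf2 were at similar levels after ApoE4 (ratio 0.926 to 1.64), while after ApoE3 Batf was at 0.468 to 0.522 of Batf2. Batf3, the remaining member of the family and a factor of dendritic cells, fell with both fragments, with a log2 change of -1.77 with ApoE4 and -1.05 with ApoE3. Batf2 was at 0.00440 to 0.00676 of Batf3 per kilobase in ControlA and at 0.328 to 0.375 in ApoE4.

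**Figure D3:**
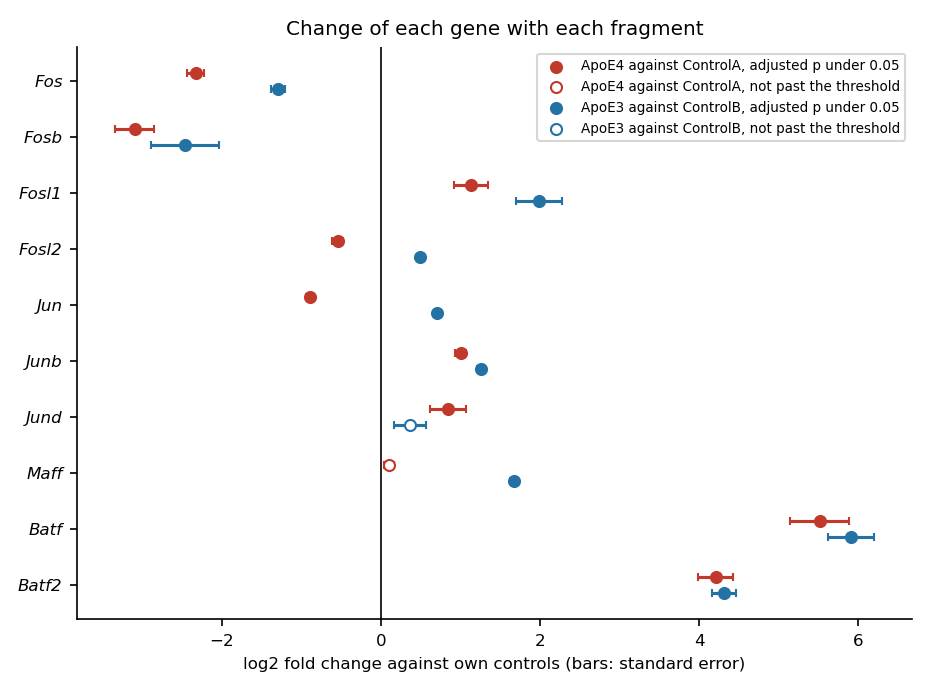
Log2 fold change of each gene with the ApoE4 fragment against ControlA and with the ApoE3 fragment against ControlB; bars are standard errors and open circles did not pass the threshold. Fos and Fosb lie left of 0 and Fosl1, Junb, Batf and Batf2 right of 0 for both fragments, while Fosl2 and Jun lie on opposite sides.

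The difference between both responses was tested directly as an interaction over the 11 samples. Of the 10 genes, 0 had a higher log2 change with ApoE4 and 4 a lower one, against 14.4% higher and 13.9% lower among 15287 genes. DESeq2 gave 0 higher and 5 lower, with Junb added, against 2150 higher and 2146 lower among 25715 genes. The difference of log2 changes, ApoE4 minus ApoE3, was -1.61 for Jun (SE 0.065, adjusted p = 7.60e-09) and -1.57 for Maff (SE 0.078, adjusted p = 2.78e-08). It was -1.05 for Fosl2 (SE 0.084, adjusted p = 1.64e-06) and -1.05 for Fos (SE 0.16, adjusted p = 3.50e-04). Across all genes, 11.3% differed by more than 1 on the log2 scale in either direction.

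For the other 6 genes a difference was not shown, and the intervals of the difference were of very unequal width. That of Junb was narrow, at -0.45 to -0.08 around -0.26 (adjusted p = 0.0510), and this gene passed the threshold in 6 of 16 alternative analyses. Fosl1 had -0.87 (95% interval -1.57 to -0.16, adjusted p = 0.0921). The intervals of Fosb (-1.71 to 0.41), Jund (-0.16 to 1.08), Batf (-1.81 to 1.04) and Batf2 (-0.84 to 0.61) allowed a difference in either direction. Each fragment was given in its own experiment, so fragment and experiment cannot be told apart in any of these differences.

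**Figure D4:**
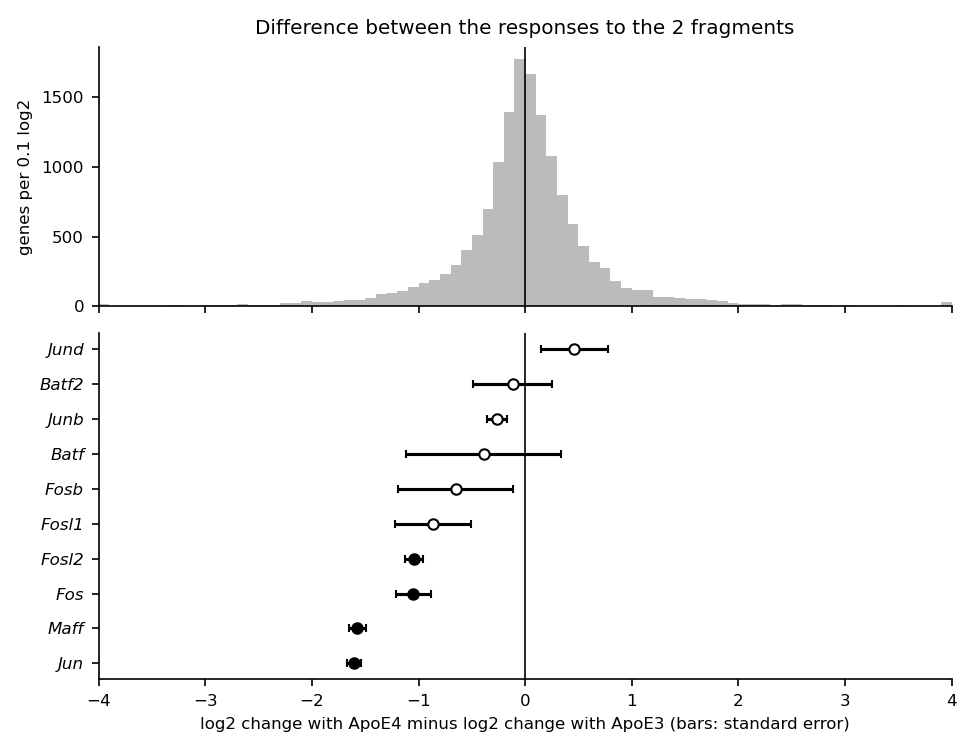
Top, number of genes by the difference of their log2 changes (ApoE4 minus ApoE3), with values beyond 4 placed in the outermost bins; bottom, the same difference for the 10 genes with standard errors, filled where it passed the threshold. Fos, Fosl2, Maff and Jun are filled and lie between -1.05 and -1.61.

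The untreated controls of both experiments differed in most of these genes, as they did in 69.3% of all 14249 genes tested. In ControlB, 2 of the 9 genes tested were higher than in ControlA (Jun and Batf2) and 5 were lower (Fos, Fosb, Fosl1, Fosl2 and Maff), against 34.4% higher and 34.9% lower among 14249 genes. The log2 difference, ControlB minus ControlA, was -1.12 for Fos (adjusted p = 3.08e-05), -1.60 for Fosb (1.31e-04), -1.68 for Fosl1 (2.81e-04), -0.47 for Fosl2 (7.22e-05) and -0.74 for Maff (1.37e-05). It was 0.24 for Jun (adjusted p = 0.00210) and 1.59 for Batf2 (0.00232). Junb (-0.15, adjusted p = 0.0770) and Jund (-0.31, adjusted p = 0.212) did not pass, and Batf had too few counts to be tested. Of 13 other immediate early genes tested, 0 were higher in ControlB and 11 lower, with a median of -0.74 against -0.01 for all genes. Since each change above is counted from these unequal starting levels, the part of the starting level in the differences between fragments was not tested.

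Patterns over the 11 samples were compared by the root mean square difference of log2 CPM after each gene was centred on its own mean, with 0.5 CPM added. Of 15286 genes, Themis2 (0.0695) and Slc6a8 (0.0705) were the most like Fosl2, and Rnf114 (0.0755) and Acp2 (0.0788) the most like Junb. For Fos they were Sgpp1 (0.112) and Nlrp10 (0.127), for Maff Mpeg1 (0.145) and Fndc3a (0.179), and for Jun AU022793 (0.156) and P4ha1 (0.169). The measure says only that the levels ran in parallel over these samples.

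The genes around AP-1 were taken from 7 lists, whose counts stand against 28.6% rising and 28.6% falling among all genes with ApoE4 and 33.1% and 34.6% with ApoE3. The medians of the lists stand against 0.00 for all genes with both fragments. Of 24 other leucine zipper genes tested, 15 rose and 4 fell with ApoE4, and 14 rose and 8 fell with ApoE3, with median log2 changes of 0.50 and 0.20. Cebpd, an acute phase factor, rose by 2.94 and 2.66 on the log2 scale, and Creb5 by 2.17 and 3.40. Jdp2, which encodes a repressor that pairs with Jun, rose by 2.32 with ApoE4 and 0.79 with ApoE3, and Atf3, a stress-induced partner of Jun, by 1.10 and 1.70. Maf, the founding gene of its family, fell, with log2 changes of -1.73 and -1.86.

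Of the kinases and factors upstream of AP-1, 4 of 26 rose and 9 fell with ApoE4, and 7 of 27 rose and 11 fell with ApoE3, with medians of -0.09 and -0.04. With ApoE3 both shares lie near those of all genes. Map3k8, the kinase that links NF-kB signalling to ERK, rose by 1.16 and 1.51, and Map3k1, a kinase above JNK, had log2 changes of -1.96 and -1.06. The mean level of Map3k5, from the same list, went from 23.8 CPM in ControlA to 76.5 CPM in ApoE4. It was 27.6 CPM in ControlB and 28.5 CPM in ApoE3. Of 9 MAP kinase phosphatases, which switch these kinases off, 6 rose and 2 fell with ApoE4 and 7 rose and 2 fell with ApoE3, with medians of 0.81 and 1.40. Dusp8 rose by 5.51 and 5.04, and Dusp16 by 1.84 and 2.09, and both act on JNK and p38. The mean level of Dusp7 went from 55.2 CPM in ControlA to 15.3 CPM in ApoE4 and from 62.2 CPM in ControlB to 20.2 CPM in ApoE3. For Dusp6 it went from 6.02 to 1.90 CPM and from 5.97 to 2.54 CPM.

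Of the AP-1 target genes, 11 of 16 rose and 5 fell with ApoE4, and 14 of 17 rose and 2 fell with ApoE3, with medians of 1.13 and 1.72 on the log2 scale. The list holds 22 genes, and the others had too few counts to be tested. Il6, Csf2 and Timp1 had 0 counts in every sample, and whether they were silent was not tested. Mmp13, a collagenase with a textbook AP-1 promoter, rose by 5.27 and 5.76, Tnf by 5.09 and 6.38 and Ptgs2 by 4.75 and 6.00. Tnf had only 5 counts over the ControlA samples and 4 over the ControlB samples, so the size of its rise is set by very few reads. Ccnd1, the cyclin D1 gene, had -1.70 and -1.14. Many of these genes also answer to other factors, and their change is no measure of AP-1 activity. Of 5 IRF genes (Irf1, Irf2, Irf4, Irf5 and Irf8), 1 rose and 1 fell with ApoE4 and 3 rose and 2 fell with ApoE3. The medians were -0.06 with ApoE4 and 0.30 with ApoE3. Irf1 rose by 3.71 and 2.44, and Irf8, which BATF can bind beside, had -1.44 and -0.94.

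Of 13 other immediate early genes, 5 rose and 4 fell with ApoE4, near the shares of all genes, and 7 rose and 6 fell with ApoE3, with medians of -0.03 and 0.78. Egr1 was not among those tested, with 1 count over the ApoE4 samples and 0 in the other groups. Such counts do not show that it was silent. Myc rose by 3.63 and 3.51, Egr3 had -3.77 and -2.81, and Ier3 had -0.69 with ApoE4 and 3.52 with ApoE3. Of 7 ubiquitin ligases and repressors, 4 rose and 1 fell with ApoE4 and 5 rose and 1 fell with ApoE3, with medians of 0.25 and 0.18. Rfwd2, now named Cop1 and coding for a ligase that removes c-Jun, rose by 1.20 and 0.50. Pdcd4, whose product restrains AP-1, had -1.28 and -1.77.

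**Figure D5:**
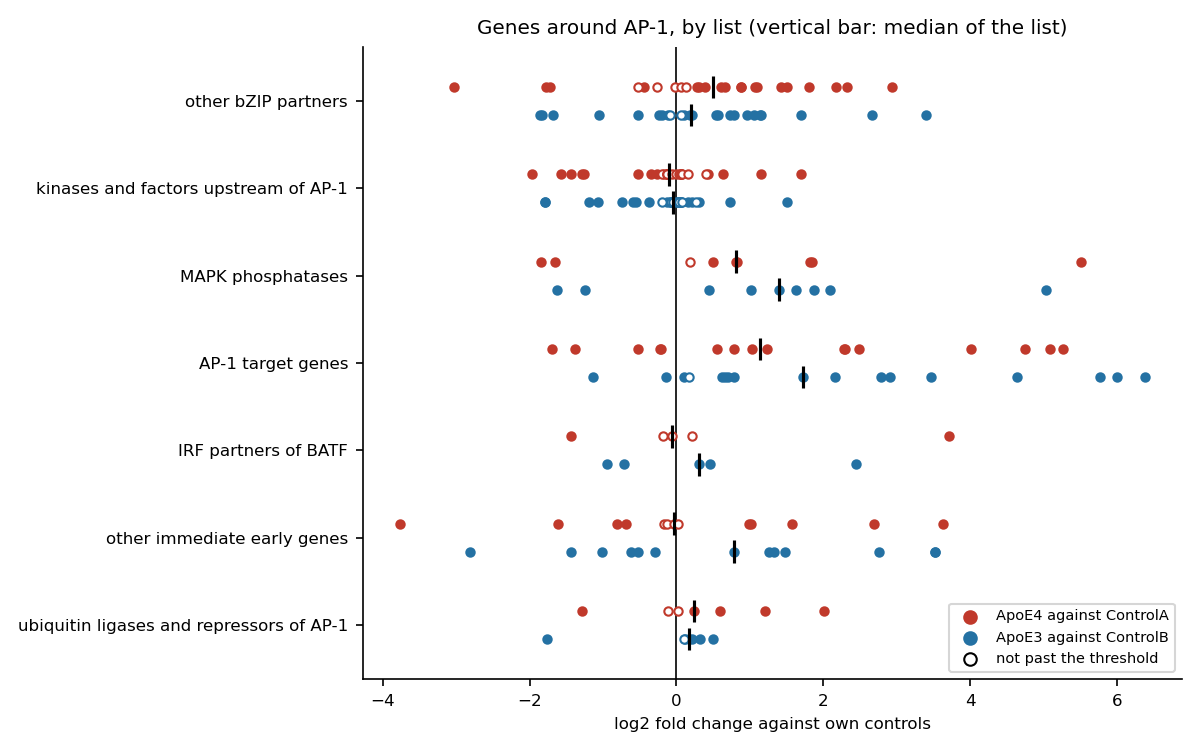
Log2 fold change of each tested gene of the 7 lists with the ApoE4 fragment (upper row of each list) and the ApoE3 fragment (lower row); open circles did not pass the threshold and vertical bars are medians of the list. The medians of the phosphatases and the target genes lie right of 0 with both fragments, and every list holds genes on both sides of 0.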

How the data were processed

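RNA-seq was performed on 11 samples of BV2 cells. The authors trimmed single-end reads of 75 bases with Trim Galore 0.5.0, mapped them to GRCm38.p6 with HISAT2 2.1.0 and deposited raw counts per gene from HTSeq 0.11.0. The strand setting and annotation release of the counting are not given in the sources used here. The 36529 rows that name a gene were used, and the tallies of uncounted reads were left out. Counts were tested in R 4.3.3 with edgeR 4.0.16 (filterByExpr, TMM, quasi-likelihood F test, Benjamini-Hochberg adjustment over all genes tested), with a threshold of 0.05. The study used DESeq2, which was an alternative here (1.42.0). Each fragment was fitted with its own controls, and the difference of responses over all 11 samples. Standard errors are the log2 change divided by the square root of F, and 95% intervals are approximate. The fits were also run on simulated counts with the same spread set for every gene, which does not give their error rates in these data.

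Groups and replicate numbers came from the labels. The members and lists were chosen with earlier results of these data known. From each other list the text names genes among the 3 largest rises and 3 largest falls with either fragment. Mafg and Mafk were added after their values were seen. Transcript lengths and gene positions came from GENCODE M21 on GRCm38, and promoters from RefSeq. Depth was 39732710 to 69768666 counts per sample, which limits precision for Fosb, Fosl1, Jund, Batf and Batf2. Alternatives were DESeq2, its size factors, other count filters, 1 fit of all samples, a replicate block and leaving out each replicate.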

Additional observations from a re-analysis of the deposited data

Results flagged for a closer look

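The response to the fragments differed, by the interaction test, in 4 of the AP-1 and BATF genes and in some of the genes named around them. The difference of log2 changes, ApoE4 minus ApoE3, was -1.05 for Fos, -1.05 for Fosl2, -1.61 for Jun and -1.57 for Maff. For Fos the treated levels overlapped, at 5.29 to 6.23 CPM with ApoE4 and 5.21 to 5.62 CPM with ApoE3, and the controls differed. For Jun the treated samples lay on opposite sides of all 6 controls. For Maff the ApoE4 samples overlapped their controls. For Fosl2 the treated groups lay apart and each overlapped the controls of the other experiment.

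Among other leucine zipper genes the difference was -0.61 for Atf3, 1.52 for Jdp2, -0.73 for Batf3, -0.76 for Mafk and -1.25 for Creb5. For genes of the MAP kinase pathway it was -0.91 for Map3k1, -0.36 for Map3k8 and -0.26 for Dusp16. For target genes and IRF genes it was -0.57 for Ccnd1, -1.26 for Ptgs2, -0.51 for Irf8 and 1.26 for Irf1. It was -0.97 for Egr3, -4.21 for Ier3, 0.69 for Rfwd2 and 0.47 for Pdcd4. Fragment and experiment cannot be told apart in these values.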

How the results depend on the processing

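Of 489 values of single AP-1 and BATF genes under the alternatives, 476 kept their direction and side of the threshold, 0 lost and 9 gained a call, and 4 changed sign, all interaction values that passed in neither setting. These were Batf (0.40 without ControlA replicate 2), Fosb (0.21 without ApoE3 replicate 2) and Batf2 (0.085 without ControlA replicate 3 and 0.078 without ControlB replicate 2). Junb passed in the interaction test with DESeq2 (-0.27, adjusted p = 0.0372), under the filter of 10 counts per sample (-0.26, adjusted p = 0.0443) and without ControlA replicate 2 or 3, ApoE4 replicate 3 or ControlB replicate 3, over alternatives with adjusted p from 0.0165 to 0.246. Fosl1 passed there without ApoE4 replicate 1 (-1.05, adjusted p = 0.0480). Maff passed with ApoE4 without ControlA replicate 2 (0.15, adjusted p = 0.0340), and Junb passed between the controls without ControlA replicate 3 (-0.20, adjusted p = 0.0215). Under the filter of 10 counts per sample, low-count genes were not tested. This left 3 higher and 3 lower with ApoE4, 6 higher and 1 lower with ApoE3, and 1 higher and 5 lower in ControlB. The interaction then had 0 higher and 5 lower with Junb added, against 2203 higher and 2051 lower among 12492 genes. The fit over all 11 samples, DESeq2's size factors and genes with at least 1 count changed no call among the 10 genes.

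Same-numbered treated and control samples did not deviate together (r = -0.0904, -0.338 and -0.162 with ApoE4, -0.00203 and -0.0153 with ApoE3), and 0 of 6 samples correlated best with their own number in the first experiment. A replicate block left the calls among the 10 genes at 5 higher and 4 lower with ApoE4, 7 and 2 with ApoE3, 0 and 4 in the interaction, and 2 and 5 between the controls. Over all genes the block gave 1150 higher and 1157 lower in the interaction, against 2208 and 2123 without it. Depth limits Batf and Fosb, whose interaction values ranged from -1.12 to 0.40 and from -1.20 to 0.21.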
